A study of Rattus norvegicus with 12 samples.

Results

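A set of 5 circular RNAs (circRNAs) with high read counts in some libraries and 0 in others is described here, out of 21914 circRNAs in the deposited table. They are novel_circ_0009707, novel_circ_0030443, novel_circ_0001491, novel_circ_0000376 and novel_circ_0001684, and all 5 were found by identifier. They were chosen by their read counts in these same 12 libraries, so the pattern of counts and zeros is a description of the choice and is not tested. None of the 5 was in the study's list of node circRNAs.

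The libraries came from the hypothalamic tissue that the study labels PVN and calls the periventricular nucleus, of young male Sprague-Dawley rats, with 3 libraries in each of 4 groups. The NC group had no operation. The HT group had a partial hepatectomy, in which part of the left liver lobe was removed under isoflurane. The HT + EA group had the same operation and electroacupuncture, a weak current through needles at the points Zusanli and Sanyinjiao, before and after surgery. The HT + SEA group had the operation and needles at those points that were not connected to the stimulator. Per the study's methods, rats of every group were held in the restraint device for the same time, and tissue was taken the day after the last treatment. The table named no host genes, so the tissue could not be checked against marker genes. The methods name 12 rats for the 4 groups but do not say that each library was made from 1 rat. They add that 1 rat gave limited tissue, and that brain samples shared a batch but not an animal. The p-values thus set group differences against the spread between libraries, which may be technical. In bulk tissue, fewer cells of a type and less RNA per cell cannot be told apart.

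A circRNA forms when the spliceosome joins the end of an exon to the start of the same or an earlier exon, which closes the RNA into a loop without free ends. Such loops resist exonucleases and are abundant in brain, where many derive from genes of neurons and synapses. In sequencing data they are recognised only by reads that cross the back-splice junction, so the count of a circRNA is a count of those junction reads. Some circRNAs can bind microRNAs, which is the property on which circRNA-miRNA-mRNA networks rest. The table gave no host gene, coordinate or sequence for the 5 circRNAs, so their roles are not described and no sequence is shown.

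The total count per library ran from 134903 in HT replicate 3 to 360524 in HT + EA replicate 2, with a median of 220991. No library held a value of 1 for any circRNA, and the lowest count above 0 was 2. A 0 thus means that the circRNA was not listed in that library, and no upper limit was computed from it. Levels are given as CPM, the count per 1000000 counts of the library total.

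The most abundant of the 5 was novel_circ_0009707. Its counts were 0, 334 and 440 in NC replicates 1, 2 and 3 and 0 in all 3 HT libraries. They were 359, 558 and 0 in HT + EA and 382, 0 and 0 in HT + SEA. Each group that listed it thus also held a library without it. In the 5 libraries where it was listed its CPM was 1569 ± 111 (SD, n = 5), and its place in the order of counts within a library was between the 47th and the 61st. The CPM was lowest in NC replicate 2, at 1449 (95% Wilson interval 1301 to 1612), and highest in NC replicate 3, at 1695 (1544 to 1860), and the intervals overlapped. These intervals cover counting error only, since reads without molecular identifiers are not independent molecules. The coefficient of variation (CV) over the 5 libraries was 7.09%. Among 42 circRNAs that were listed in all 12 libraries, with a mean CPM within 1.25-fold of it, the median CV was 11.6%, and the middle 90% of them lay between 7.64% and 17.5%. These CVs are over 12 libraries, while those of the 5 circRNAs, here and below, are over 3 or 5. A CV of so few values is less certain, so the comparison is a loose one. At the level of the libraries that listed it, between 212 and 389 reads would have been counted in each of the 7 libraries at 0.

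A different set of libraries listed novel_circ_0030443. The counts were 0, 0 and 222 in NC, 138, 171 and 0 in HT, 0 in all 3 HT + EA libraries, and 181, 0 and 204 in HT + SEA. NC, HT and HT + SEA each held both kinds of library. The CPM was 811 ± 153 (SD, n = 5) where it was listed, from 690 (95% Wilson interval 594 to 802) in HT replicate 2 to 1058 (923 to 1214) in HT + SEA replicate 3. Here the intervals did not overlap, and the CV of 18.8% lay between the limits of 9.51% and 29.5% that held the middle 90% of 110 circRNAs of like abundance listed in all libraries. In the 7 libraries at 0 the expected count was 109 to 293. The highest of these values belonged to HT + EA replicate 2, the largest library of all.

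For novel_circ_0001491 only 3 libraries had reads. They were NC replicate 3 with 90, HT + EA replicate 1 with 90 and HT + EA replicate 2 with 92 reads, and HT and HT + SEA were at 0 throughout. The counts were almost equal although the totals were not, so that the CPM ran from 255 (95% Wilson interval 208 to 313) in HT + EA replicate 2 to 420 (341 to 516) in HT + EA replicate 1, with a mean of 340 ± 82.4 (SD, n = 3). Its CV was 24.2%, where the median of 235 circRNAs of like abundance listed in all libraries was 19.3%. The expected count in the 9 libraries at 0 was 45.9 to 87.8.

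The least abundant was novel_circ_0000376, with 31 reads in NC replicate 1, 14 in HT replicate 1 and 49 in HT + SEA replicate 1. All HT + EA libraries and the other 6 libraries were at 0. Its mean CPM where listed was 135 ± 56.9 (SD, n = 3), from 76.3 (95% Wilson interval 45.4 to 128) to 190 (144 to 251), and these intervals did not overlap. The expected counts at 0 were the smallest of the 5 circRNAs, 18.2 to 48.5, and at the lowest listed CPM only 10.3 reads would have been expected in HT replicate 3. The CV of 42.3% was at the upper end of that of 523 circRNAs of like abundance listed in all libraries, of which the middle 90% lay between 17.2% and 42.3%.

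No group was at 0 throughout for novel_circ_0001684. Its counts were 25, 46 and 0 in NC, 0, 57 and 0 in HT, 0, 51 and 0 in HT + EA, and 65, 0 and 0 in HT + SEA. Each group thus held at least 1 library with reads and at least 1 without. The mean CPM where listed was 187 ± 59.4 (SD, n = 5), from 111 (95% Wilson interval 75.1 to 164) in NC replicate 1 to 252 (198 to 321) in HT + SEA replicate 1. The CV was 31.8%, against limits of 15.6% and 37.8% for the middle 90% of 414 circRNAs of like abundance, and the expected count in the 7 libraries at 0 was 25.2 to 48.5.

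**Figure D1:**
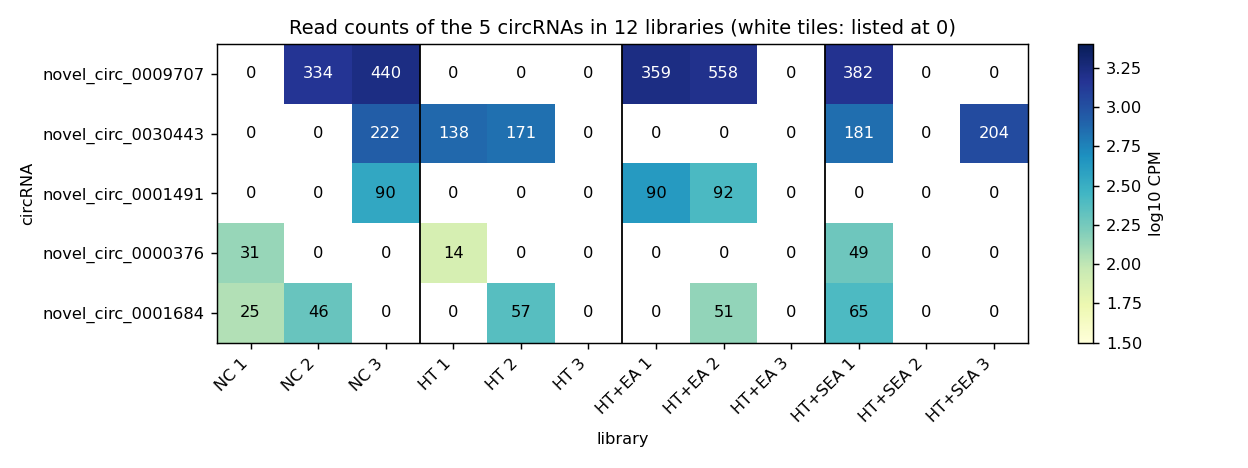
Read counts of the 5 circRNAs (rows) in the 12 libraries (columns, parted by group), with the colour giving log10 CPM and white tiles marking counts of 0. In no group is any of the 5 listed in all 3 libraries, and HT replicate 3, HT + EA replicate 3 and HT + SEA replicate 2 are at 0 for all 5.

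With respect to group, the 5 circRNAs and 4 groups give 20 combinations. In 15 of them libraries of the same group were split between reads and 0, in 5 the whole group was at 0, and in none were all 3 libraries listed. The 5 groups at 0 were HT for novel_circ_0009707, HT + EA for novel_circ_0030443, HT and HT + SEA for novel_circ_0001491 and HT + EA for novel_circ_0000376. With 9 of 12 libraries at 0, as in novel_circ_0001491 and novel_circ_0000376, at least 1 of the 4 groups must be at 0 throughout. Of the 15 values in a group, 7 were above 0 in NC, 4 in HT, 5 in HT + EA and 5 in HT + SEA. NC was the only group in which every one of the 5 was listed in some library. It also held none of the 6 smallest libraries, and this difference was not tested.

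The CPM of the groups overlapped or tied at 0 for all 5 circRNAs in each contrast. The zeros by which they were chosen settled this, since each of the 5 was at 0 in at least 1 library of every group. The numbers without overlap are therefore no result about the 5. The number of the 5 without overlap was 0 in HT against NC, where 9.36% of the 4838 circRNAs tested did not overlap. It was also 0 when HT + EA was set against HT (11.3%), HT + SEA against HT (9.53%) and HT + EA against HT + SEA (11.8%). All 5 passed the filter on low counts. At an unadjusted p below 0.05, edgeR called 1 of the 5 in HT against NC (3.41% of all circRNAs tested), and this was novel_circ_0009707, lower in HT. In HT + EA against HT it called 3 (4.77% of all), with novel_circ_0009707 and novel_circ_0001491 higher and novel_circ_0030443 lower in HT + EA. In HT + SEA against HT it called 1 (3.29% of all), novel_circ_0009707, which was above 0 in HT + SEA replicate 1 alone. In HT + EA against HT + SEA it called 2 (3.89% of all), novel_circ_0030443 and novel_circ_0001491. In the test of any difference among the 4 groups it called 1 (2.48% of all), novel_circ_0001491. Each of these calls has a group at 0 throughout on one side, and the contrasts share libraries. At an adjusted p below 0.05 edgeR called 0 of the 5 and 0% of all circRNAs in each of the 5 tests. With a filter at a mean count of at least 2 in its place, edgeR again called 0 of the 5 and 0% of all after adjustment. Without any filter the result changed, and the cause of this was not tested. Over 21914 circRNAs, adjusted edgeR calls then included 2 of the 5 in HT against NC (0.128% of all) and 4 in HT + EA against HT (0.164%). They included 1 in HT + SEA against HT (0.114%), 4 between HT + EA and HT + SEA (0.164%) and 4 in the test of any difference (0.319%).

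The tool changed the calls too. DESeq2 at an unadjusted p below 0.05 called 1 of the 5 in HT against NC (2.23% of all), 2 in HT + EA against HT (2.96%), 1 in HT + SEA against HT (2.15%), 1 between HT + EA and HT + SEA (2.46%), and 0 where any difference was tested (1.57%). After adjustment it still called novel_circ_0009707 in HT against NC, where 2 circRNAs (0.0413%) passed in all, and in HT + SEA against HT, where 2 (0.0413%) passed. In HT + EA against HT novel_circ_0009707 and novel_circ_0030443 were among the 4 circRNAs that passed (0.0827%). The only circRNA that passed between HT + EA and HT + SEA was novel_circ_0030443 (0.0207%). No circRNA passed the adjusted DESeq2 test of any difference (0%). DESeq2 gave no p for novel_circ_0000376 in any test. With limma-voom, and with edgeR's robust estimation of dispersion, none of the 5 was called in any test, even unadjusted. Of all circRNAs, 2.42% to 5.42% were called there unadjusted. Since the same counts chose the 5 circRNAs, none of these calls is evidence of a group effect. Several edgeR calls changed when 1 library was left out, with p close to 0.05. Without HT replicate 2 the edgeR calls fell to 0 in HT against NC (5.08% of all) and to 1 in HT + EA against HT (6%). For novel_circ_0009707 in HT against NC the edgeR p was then 0.053. It was 0.049 and 0.044 without HT replicates 1 and 3, which were at 0 as well. In HT + SEA against HT no call was left without HT + SEA replicate 1, nor without several other libraries, some of them outside the contrast.

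The zeros of the 5 circRNAs were then compared with each other. Among the 10 pairs, both circRNAs were at 0 in 4 to 7 libraries, exactly 1 was listed in 2 to 6, and both were listed in 0 to 3. No pair was a mirror image, which would need exactly 1 of the 2 in all 12 libraries. Of these pairs the closest was novel_circ_0009707 and novel_circ_0001491. Every library that listed novel_circ_0001491 also listed novel_circ_0009707, and NC replicate 2 and HT + SEA replicate 1 listed the latter alone. By contrast, novel_circ_0001491 and novel_circ_0000376 were never listed together, and 6 libraries listed neither. The 2 most abundant circRNAs, novel_circ_0009707 and novel_circ_0030443, were listed together in NC replicate 3 and HT + SEA replicate 1, singly in 6 libraries and in neither form in 4.

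By library, the number listed ran from 0 to 4 of the 5. HT + SEA replicate 1 listed 4, all but novel_circ_0001491, and these took 0.262% of its total. NC replicate 3 and HT + EA replicate 2 listed 3 each, 0.290% and 0.194% of their totals. HT replicate 3, HT + EA replicate 3 and HT + SEA replicate 2 listed none, although together the 5 would have had 410, 658 and 540 reads there at their listed levels. The remaining libraries listed 1 or 2. A library without any of the 5 was thus found in each operated group and not in NC. The NC libraries were the 7th, 8th and 11th smallest, so the 6 smallest were all of operated groups. Group and total therefore cannot be told apart here, and the zeros that chose the 5 are not tested.

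The relation to the library total was not the same for the 5. The 3 libraries that listed none were the smallest, the 2nd smallest and the 6th smallest of the 12, with totals of 134903, 177533 and 216431. The circRNA whose zeros followed the total most closely was novel_circ_0001684. It was listed in 5 of the 6 largest libraries and in none of the 6 smallest, the exception being NC replicate 3, which was the 2nd largest and was at 0. For novel_circ_0009707, 3 of the 7 libraries at 0 had totals above the smallest library that listed it, and for novel_circ_0001491 5 of 9 did. For novel_circ_0030443 5 of 7 did, and the largest library was among those at 0. For novel_circ_0000376 the number was 7 of 9, again with the largest library at 0. In 38 of the 39 zeros the count expected from the listed libraries was at least 20, the exception being novel_circ_0000376 in HT replicate 3. From the lowest listed CPM in place of the mean, this held for 29 of the 39. The other zeros were 8 of the 9 of novel_circ_0000376 and 2 of the 7 of novel_circ_0001684, which were then below 20. Whether the total had a part in the zeros was not tested.

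**Figure D2:**
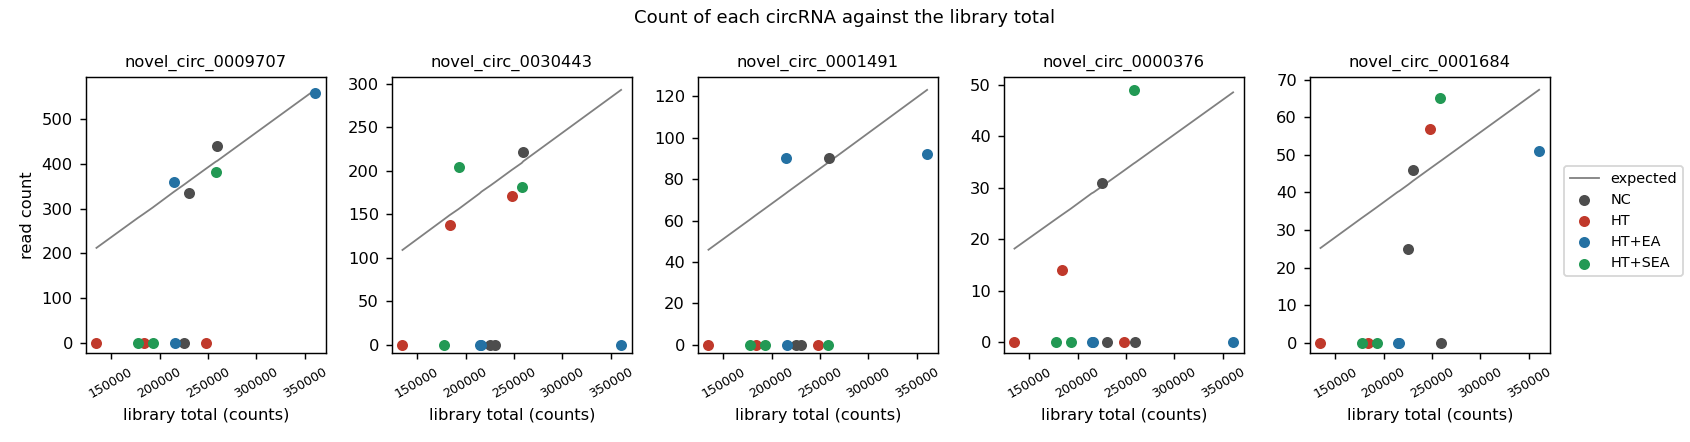
Read count of each circRNA (1 panel each) against the library total in counts, with points coloured by group and a grey line for the count expected from the mean CPM of the libraries that listed it. Points with reads scatter around the line, least so for novel_circ_0009707, and HT + EA replicate 2, the library with 360524 counts, is at 0 for novel_circ_0030443 and novel_circ_0000376.

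In the whole table such patterns were uncommon at this abundance. At least 20 reads were expected in every library for 1337 circRNAs, of which 166 (12.4%) were at 0 in some library, 112 of them in 1 library only. At 0 in 7 or more libraries were 20 circRNAs (1.50%), among them 4 of the 5 described here, since novel_circ_0000376 fell short of 20 expected reads in HT replicate 3. A whole group was at 0 in 20 circRNAs (1.50%). Of 55 circRNAs with a mean listed CPM at or above that of novel_circ_0009707, itself included, 2 had a zero in any library and it alone had 7 or more. Just below it, novel_circ_0011557, which was named after its values were seen, had a mean listed CPM of 1557 and was at 0 in 9 libraries. Its reads were 252 in HT replicate 3, 306 in HT + EA replicate 1 and 298 in HT + EA replicate 3. HT replicate 3 and HT + EA replicate 3 were at 0 for novel_circ_0009707, HT + EA replicate 1 listed both circRNAs, and 5 libraries listed neither. For novel_circ_0030443 the numbers were 9 of 178 with a zero and 4 with 7 or more, and for novel_circ_0001491 30 of 534 with a zero and 5 with 9 or more. At the lower levels of novel_circ_0001684 and novel_circ_0000376, 107 of 1039 and 202 of 1485 circRNAs had a zero. Across the 166 circRNAs, HT replicate 3 was at 0 for 55 (33.1%) and HT + SEA replicate 2 for 48 (28.9%), the highest shares, and HT + EA replicate 2 for 20, the lowest. The third library without any of the 5, HT + EA replicate 3, was at 0 for 36 (21.7%).

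**Figure D3:**
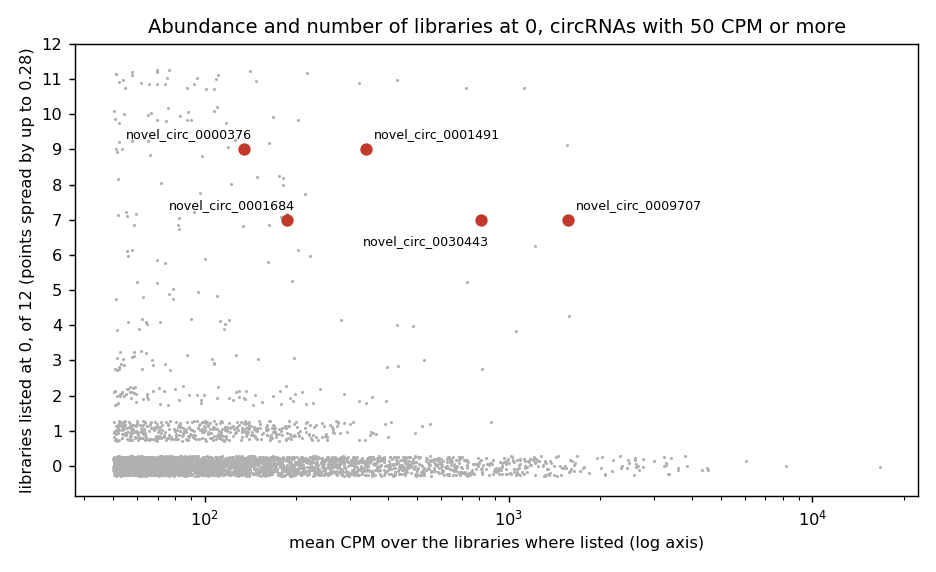
Mean CPM over the libraries where a circRNA was listed (log axis, circRNAs with at least 50 CPM) against the number of libraries at 0, with the 5 circRNAs in red and all others in grey. Most circRNAs of this abundance lie at 0 or 1 library at 0, and the 5 lie at 7 or 9.

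To see whether the reads missing in a library were listed under another identifier, the table was searched for mirror patterns. No circRNA with 20 or more reads in any library was listed in exactly the libraries where 1 of the 5 was at 0, and none had the same set of listed libraries. Patterns identical to novel_circ_0009707, novel_circ_0001491, novel_circ_0000376 and novel_circ_0001684 were found in 10, 11, 5 and 5 circRNAs with at most 10, 7, 10 and 8 reads, and identical to novel_circ_0030443 in none. Exact mirrors existed for novel_circ_0000376 only, in 2 circRNAs with at most 14 reads. Near mirrors were counted among circRNAs within 2-fold of the mean CPM that had a zero. Exactly 1 of the 2 was listed in at most 11 libraries for novel_circ_0000376 (2 of 416 circRNAs) and 10 for novel_circ_0001491 (19 of 118). The number was 9 for novel_circ_0001684 (6 of 307), 8 for novel_circ_0030443 (2 of 19) and 6 for novel_circ_0009707 (5 of 8). A circRNA listed in most libraries scores high against 1 that is mostly at 0, so no result is drawn. The partner whose CPM gave the steadiest sum was a far more abundant circRNA in each case, 3.85 to 20.6 times the level of the circRNA itself, with a CV of 6.06% to 8.03% of its own and of 3.99% to 9.58% for the sum. Novel_circ_0010853 was named in this way for novel_circ_0009707 and novel_circ_0001491, novel_circ_0039775 for novel_circ_0030443, novel_circ_0013663 for novel_circ_0000376 and novel_circ_0036452 for novel_circ_0001684. Among circRNAs within 2-fold of its mean CPM, a limit chosen after the values were seen, the steadiest sums were less even. With novel_circ_0024193, whose own CV was 21.2%, the sum for novel_circ_0001491 had a CV of 11.9%. With novel_circ_0028334 the CV was 32.3% alone and 17.5% for the sum with novel_circ_0000376, and with novel_circ_0030860 it was 23.3% alone and 19.6% for the sum with novel_circ_0001684. For novel_circ_0009707 and novel_circ_0030443 the sum varied more than the partner alone, with 19.9% against 17.6% for novel_circ_0012401 and 22.0% against 9.04% for novel_circ_0027204. Each of these partners is the best of 167 to 2085 circRNAs searched.

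None of the nearest identifiers by running number was listed in exactly the same libraries. Just before novel_circ_0009707, novel_circ_0009706 was listed in all 12 libraries with 17 to 44 reads, and 6 steps after it novel_circ_0009713 had 4 reads in NC replicate 3 alone. On either side of novel_circ_0030443, novel_circ_0030440 was listed in all libraries with 16 to 62 reads and novel_circ_0030446 had 2 reads in 1 library. The neighbours of novel_circ_0001491, novel_circ_0001489 and novel_circ_0001492, had at most 4 and 3 reads. Next to novel_circ_0000376, novel_circ_0000377 was listed in 11 libraries with up to 48 reads and was at 0 in HT + SEA replicate 3, and novel_circ_0000374 had 4 reads each in NC replicate 1, HT + EA replicate 3 and HT + SEA replicate 1. It thus shared 2 of the 3 libraries that listed novel_circ_0000376 and differed from it in 2 of 12, at counts close to the lowest in the table. Those of novel_circ_0001684 were novel_circ_0001683 and novel_circ_0001685, with at most 5 and 15 reads. The sources used here do not say whether running numbers follow position in the genome.

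The circRNAs most and least like each of the 5 over the 12 libraries were named by the Pearson r of log2 CPM (prior count 2), searched over 21913 circRNAs, so the r values are the extremes of a search and are given without a test. The most alike were low-count circRNAs with at most 7 reads, namely novel_circ_0020022 for novel_circ_0009707 (r = 0.995), novel_circ_0004980 for novel_circ_0030443 (r = 0.886), novel_circ_0001354 for novel_circ_0001491 (r = 0.998), novel_circ_0004763 for novel_circ_0000376 (r = 0.986) and novel_circ_0025177 for novel_circ_0001684 (r = 0.989). The least alike were also low for the first 4, with at most 14 reads. These were novel_circ_0023006 (r = -0.948), novel_circ_0035696 (r = -0.846), novel_circ_0007971 (r = -0.923) and novel_circ_0002944 (r = -0.931) in the same order.

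For novel_circ_0001684 the least alike circRNA, novel_circ_0022863 (r = -0.912), was well counted and was listed in all 12 libraries. Its counts were 58, 62 and 179 in NC, 199, 86 and 87 in HT, 171, 71 and 143 in HT + EA and 41, 94 and 180 in HT + SEA. In the 5 libraries that listed novel_circ_0001684 the CPM of novel_circ_0022863 was 159 to 347, and in the 7 libraries at 0 it was 529 to 1084, so that these ranges did not overlap. The low level of the latter was found in NC replicates 1 and 2, HT replicate 2, HT + EA replicate 2 and HT + SEA replicate 1, which is at least 1 library of each group. The sum of both CPM values was not steady, with a CV of 36.5% against 55.6% for novel_circ_0022863 alone. The library total moved with both, since the 5 libraries were among the 6 largest. Opposites with reads in most libraries were also found for the other 4, but at lower counts. Among circRNAs with a mean count of at least 10, a limit chosen after the values were seen, the lowest r was -0.859 for novel_circ_0009707 (novel_circ_0039636), -0.793 for novel_circ_0030443 (novel_circ_0017417), -0.899 for novel_circ_0001491 (novel_circ_0001619) and -0.890 for novel_circ_0000376 (novel_circ_0028334). Their counts ran from 8 to 27, 0 to 22, 9 to 22 and 18 to 61 in this order, against 41 to 199 for novel_circ_0022863. In each of these 4 pairs too, the CPM of the opposite was lower in every library that listed the circRNA than in every library at 0. A search for the lowest r favours such a separation, also for novel_circ_0022863, so it is no further result. The gap could be small, with 53.9 against 62.3 CPM for novel_circ_0001619. The most abundant of the 4, novel_circ_0028334, had 69.8 to 125 CPM in the 3 libraries that listed novel_circ_0000376 and 147 to 252 CPM in the 9 at 0.

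**Figure D4:**
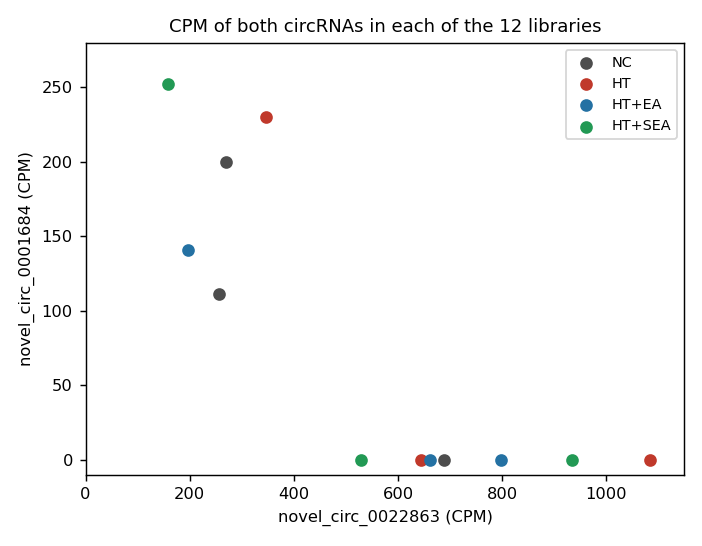
CPM of novel_circ_0001684 (vertical axis) against CPM of novel_circ_0022863 (horizontal axis), 1 point for each of the 12 libraries, coloured by group. The 5 libraries with reads for novel_circ_0001684 lie at 159 to 347 CPM of novel_circ_0022863, and the 7 at 0 lie at 529 to 1084 CPM.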

How the data were processed

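PVN tissue of 12 samples in 4 groups was profiled by RNA sequencing. Per the study's methods, the authors built strand-specific libraries from total RNA, sequenced them on Illumina instruments and removed low-quality reads. HISAT2 and featureCounts were named in general, with a rat genome in the methods and a human build in the submitters' processing notes. For the circRNA caller and its read minimum, nothing was given in the sources used here. Raw read counts per circRNA, neither normalised nor pooled, were deposited by the authors. A further 12 columns of TPM values carry names that differ in part from the sample labels, and they were left out.

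Groups came from the sample titles. The 5 circRNAs, the lists and the tests were chosen with earlier results of these data known. CPM used the column totals of 134903 to 360524. The count expected at 0 was the mean CPM of the libraries that listed the circRNA times the library total. The whole table was fitted with edgeR 4.0.16 in R 4.3.3 (glmQLFit and glmQLFTest, TMM, filterByExpr at its minimum count of 10 and minimum total of 15, all 12 libraries in 1 fit of 4 groups), two-sided, with Benjamini-Hochberg adjustment over 4838 circRNAs. DESeq2 1.42.0 and limma 3.58.1 (voom) were alternatives. The fits were tested on simulated counts of 1 common dispersion, without planted zeros. The searches were tested with a planted circRNA that switched between reads and 0, at a higher level than any of the 5. For the steadiest sum, only the search within 2-fold of the mean CPM was tested. No library was counted as a copy of another, since chi-square per degree of freedom was 3.06 to 5.26 over the 12 pairs within groups. Besides the 5 circRNAs, the text names for each the circRNA of highest and of lowest Pearson r, the partner with the steadiest summed CPM and the nearest identifiers on either side. Other alternatives were other size factors, other filters, robust dispersion, the replicate block, only the groups compared and each library left out.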

Additional observations from a re-analysis of the deposited data

How the results depend on the processing

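The number of the 5 circRNAs called at an unadjusted p below 0.05 is given in this order: HT against NC, then HT + EA against HT, then HT + SEA against HT, then HT + EA against HT + SEA, and last any difference. The reported numbers were 1, 3, 1, 2 and 1. With no filter (21914 circRNAs, of which 2.31% to 3.02% were called) they were 3, 4, 1, 4 and 4, and 2, 4, 1, 4 and 4 passed the adjustment. With a mean count of at least 2 they were 2, 3, 1, 3 and 3, where 1.99% to 4.26% of 10258 circRNAs were called. With DESeq2 they were 1, 2, 1, 1 and 0, where 1.57% to 2.96% of all were called. With limma-voom and with robust estimation in edgeR they were 0 in all 5 tests, where 2.42% to 5.42% of all circRNAs were called. Fits of only the groups compared gave 0 in the first 4 tests, where 2.07% to 5.14% of all circRNAs tested were called. Their filter kept only 2, 0, 1 and 1 of the 5. Both other scalings left all numbers as reported, with 2.54% to 4.77% of all circRNAs called. The cause of the other changes was not tested.

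Leaving out 1 library gave 0 to 2, 1 to 3, 0 to 1, 1 to 3 and 0 to 2. In HT against NC the number was 2 without NC replicate 1, 2 or 3 or HT + EA replicate 3 and 0 without HT replicate 2. In HT + EA against HT it was 1 without HT replicate 2 and 2 without HT replicate 1 or HT + EA replicate 1, where novel_circ_0001491 was lost. In HT + EA against HT + SEA it was 1 without HT + EA replicate 1, and without HT + SEA replicate 1 novel_circ_0001491 gave way to novel_circ_0009707. In HT + SEA against HT it was 0 without NC replicate 2 or 3, any HT library, HT + EA replicate 1 or 2 or HT + SEA replicate 1. For any difference it was 2 without NC replicate 3 and 0 without any HT library, HT + EA replicate 1 or 2 or HT + SEA replicate 3. It was 1 without HT + SEA replicate 1 or 2, but the call was then novel_circ_0009707 or novel_circ_0030443 in place of novel_circ_0001491.

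Replicate numbers are shared by the groups, but only 1 of 18 same-numbered pairs of libraries had deviations from the group means that correlated above 0.1, and 1 of 12 libraries correlated best with its own number. With the replicate block the numbers were 1, 4, 0, 3 and 0.

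At least 20 expected reads in some library at 0 held for 372 circRNAs, all 5 included. With limits of 10, 50 and 100 reads the numbers were 996, 78 and 17, the last with novel_circ_0009707 and novel_circ_0030443 only. Requiring 20 expected reads in every library, chosen after seeing the data, left 166. Mean CPM where listed moved by under 1 SD with TMM scaling. Leaving out 1 library cannot move it so far. The circRNA named as most or least alike stayed the same in 12 of 30 alternatives, and novel_circ_0022863 stayed the least like novel_circ_0001684 with a prior count of 0.5 and among circRNAs with a mean count of at least 10, but with Spearman rho another circRNA did. The limit of 10 and the 2-fold search were chosen after seeing the data. The steadiest partner stayed the same with TMM scaling for 4 of the 5 and within 2-fold of the mean CPM for 0. The zeros of novel_circ_0000376 and novel_circ_0001684 are the least certain, as their expected counts were the lowest. With the lowest listed CPM, their lowest expected counts at 0 fell from 18.2 to 10.3 and from 25.2 to below 20. Such counts moved by more than 1 SD for 4 of the 5.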
